A study of Homo sapiens with 2 samples.

Results

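The genes described here are 35 protein folding and stress genes, taken by name from the 33694 genes of a single-cell RNA sequencing experiment on enteric neural crest cells (ENCCs), the precursors of the neurons and glia of the gut. They fall into 3 groups: 12 heat shock genes, 14 endoplasmic reticulum chaperone genes and 9 genes of the ATF4 group. All 35 were found under the listed symbols in both count matrices. The cells derived from the human embryonic stem cell line H9 and were sequenced at day 10 as an adherent culture (1 library, 9627 cells) and at day 15 as floating enteric crestospheres (1 library, 6320 cells). ENCC induction used BMP4, SB431542 (an inhibitor of TGFβ receptors) and CHIR (an activator of WNT signalling), with retinoic acid in the medium from day 6 until that medium was removed on day 12. Crestospheres formed from day 12 in a neurobasal medium with FGF2, CHIR, N2, B27, a glutamine supplement and non-essential amino acids. Both cultures were taken apart with enzyme and stained with hashtag antibodies before loading. Each library pooled 2 biological repeats whose cells are not told apart in the deposited metadata, so every difference lacks a replicate check, no test was made, and day, culture format, medium, depth and library cannot be told apart.

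Folding stress is handled by separate programmes in separate parts of the cell. In the cytosol and nucleus, the heat shock factor HSF1 raises HSP70, HSP90 and small heat shock proteins when unfolded proteins accumulate. In the endoplasmic reticulum, the unfolded protein response senses the load on folding through IRE1, PERK and ATF6 and raises BiP (HSPA5), lectin chaperones, disulfide isomerases and degradation factors, in part through the transcription factor XBP1. PERK and the other kinases that phosphorylate eIF2α also favour translation of ATF4, which drives genes of amino acid synthesis and transport and, under sustained stress, ATF3, DDIT3 (CHOP), TRIB3 and CHAC1. ATF4 is controlled largely at translation, so its mRNA is a weak readout of its activity. Many of these genes also work in unstressed cells, where HSPA8, HSP90AB1 and the chaperonins HSPD1 and HSPE1 fold newly made proteins.

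The promoters of the 3 groups carry different motifs, and 4 are shown as examples: a stress-inducible heat shock gene that stayed low at both days, and 3 genes whose levels differed between days or classes. RefSeq sequences (GRCh38.p14) were matched for 34 of the 35 genes, from 250 bases before to 50 after the gene's start, and the sequences printed run 5′ to 3′ on the gene's strand up to the start. The first is HSPA1A, the stress-inducible HSP70, at chr6:31815293-31815542 on the plus strand, with the heat shock element pair GAANNTTC in capitals. HSPA5 lies at chr9:125241344-125241593 on the minus strand and HSP90B1 at chr12:103930160-103930409 on the plus strand, with the endoplasmic reticulum stress element in capitals (CCAAT, 9 bases of any kind, CCACG, on either strand). ASNS, asparagine synthetase, lies at chr7:97872409-97872658 on the minus strand, with the core of the amino acid response element, TGATGNAA, in capitals.
HSPA1A: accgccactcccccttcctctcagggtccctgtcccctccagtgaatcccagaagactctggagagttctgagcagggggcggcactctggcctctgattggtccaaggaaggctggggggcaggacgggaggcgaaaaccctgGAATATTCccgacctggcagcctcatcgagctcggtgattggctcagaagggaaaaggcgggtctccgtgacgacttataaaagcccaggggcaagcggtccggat
HSPA5: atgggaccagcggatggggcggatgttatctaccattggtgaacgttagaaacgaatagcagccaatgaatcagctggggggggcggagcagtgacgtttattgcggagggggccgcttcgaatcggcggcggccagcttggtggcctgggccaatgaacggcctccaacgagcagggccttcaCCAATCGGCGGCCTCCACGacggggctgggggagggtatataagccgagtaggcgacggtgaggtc
HSP90B1: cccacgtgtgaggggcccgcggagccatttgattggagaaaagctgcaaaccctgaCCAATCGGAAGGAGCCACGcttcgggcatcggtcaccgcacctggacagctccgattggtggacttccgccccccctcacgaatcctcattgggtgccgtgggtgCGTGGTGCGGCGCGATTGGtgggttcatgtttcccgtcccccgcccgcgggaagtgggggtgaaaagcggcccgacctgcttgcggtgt
ASNS: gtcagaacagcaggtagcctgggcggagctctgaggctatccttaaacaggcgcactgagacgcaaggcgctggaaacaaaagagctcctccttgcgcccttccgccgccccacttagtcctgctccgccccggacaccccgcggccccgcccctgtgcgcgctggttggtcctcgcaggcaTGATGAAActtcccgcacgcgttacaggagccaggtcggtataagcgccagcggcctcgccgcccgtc

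The endoplasmic reticulum stress element was found in 6 of the 13 endoplasmic reticulum promoters searched (46.2%), against 0.0769% of all 35116 promoters of the same length. The copies not printed above are given here to show the spacers between the fixed ends. Those of CALR and CRELD2 lie on the opposite strand, and the CCAAT end is also counted as a CCAAT box.
CALR: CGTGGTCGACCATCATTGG
CANX: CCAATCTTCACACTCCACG
CRELD2: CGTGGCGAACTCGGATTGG
XBP1: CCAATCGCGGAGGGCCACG

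A heat shock element pair (GAANNTTC or TTCNNGAA) was found in 5 of 12 heat shock promoters (41.7%), those of HSPA1A, HSPA1B, HSPA8, HSPB1 and DNAJA1, against 13.5% of all promoters. TGATGNAA, on either strand, was found in 3 of 9 ATF4 group promoters (33.3%), those of ASNS, ATF3 and CHAC1, against 3.62% of all promoters. It was also found in that of HERPUD1. The plain CCAAT box was found in 12 of the 13 endoplasmic reticulum promoters (92.3%) and in 34.6% of all promoters. In ASNS the TGATGAAA match shares bases with a GAAACTTC match to the heat shock pair. TRIB3 and DDIT3 had no TGATGNAA in this window. A match describes letters and does not show that a factor binds there.

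Depth was higher at day 15, with a median of 11770.5 UMIs (unique molecular identifiers, 1 per captured RNA molecule) per cell against 6713 at day 10. Cell classes are the annotation deposited with the counts: ENCC (4921 cells at day 10, 4934 at day 15), neuro-epithelial progenitor (NEP, 1811 and 104), cranial placode (CP, 324 at day 10, CP1 with 208 and CP2 with 43 at day 15), non-neural ectoderm (NNE, 239, day 10) and mesenchymal (Mes, 47, day 15). SOX10 and FOXD3 marked ENCCs at both days. The day 15 NEP cluster held WNT2B (123 CPM, UMI counts scaled to the same total in every class) and PAX6 (112 CPM), but its 5 NNE markers, keratins among them, summed to 926 CPM against 267 CPM for the 5 NEP markers. CP2 held PAX6 at 381 CPM, with EYA2 below the floor of 3 UMIs. Of the 5 NEP markers, 2 were at or under that floor in day 10 NEP, LHX2 among them at 0. The libraries share 102 cell barcodes. All levels below are the CPM of UMIs summed over the cells of a class, with exact 95% Poisson intervals that cover counting error only. A ratio is the log2 difference of CPM + 1, which understates low genes, and it is called past the threshold at 1 log2 unit when the mean of both sums is at least 20 CPM. Fewer RNA molecules per cell and fewer expressing cells are not told apart by such sums.

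In ENCCs, the class present in large numbers at both days, the endoplasmic reticulum chaperones stood higher at day 15 as a group, the amino acid synthesis genes of the ATF4 group stood higher, and the heat shock group was split. Of the 25 members that passed 20 CPM, 2 were at least 1 log2 unit higher at day 15 (ASNS and HSPB1) and 0 were as much lower, where 6.7% of the 4266 genes tested were as much higher and 3.82% as much lower. The median ratio was 0.56 for the 12 endoplasmic reticulum genes that passed, 0.85 for the 4 ATF4 group genes and -0.07 for the 9 heat shock genes, beside -0.14 over all genes tested. ASNS and HERPUD1 reached 20 CPM through their day 15 level, and the medians over all genes of a group, passed or not, were 0.56, 0.79 and -0.01. With TMM scaling, which centres the ratios differently and adds 0.19 to each, these medians became 0.75, 1.03 and 0.11, so the sign of the heat shock median turns with the scaling. All 12 endoplasmic reticulum genes and all 4 ATF4 group genes that passed lay above the median of all genes, as did 6 of the 9 heat shock genes, and a common scaling factor leaves these counts as they are.

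**Figure D1:**
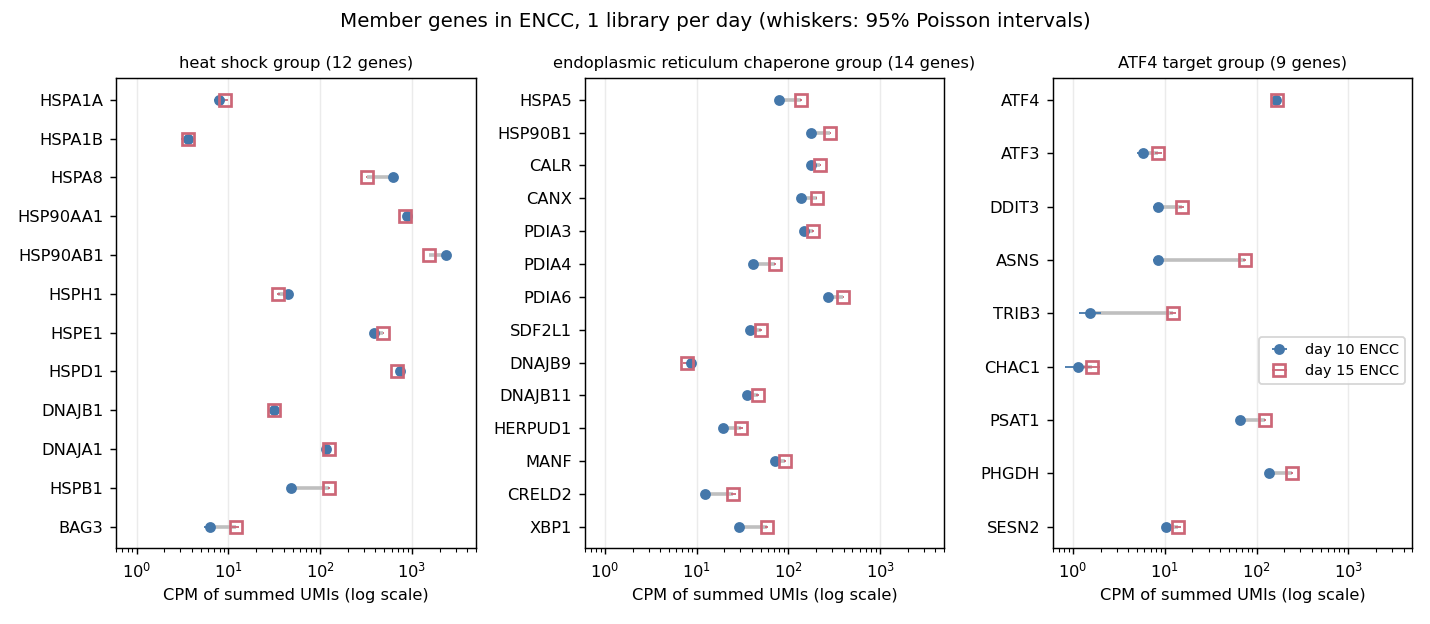
Levels of the 35 genes in ENCCs at day 10 (filled circles) and day 15 (open squares) as CPM of summed UMIs on a log axis, 1 library per day, with 95% Poisson intervals as whiskers. ASNS moved from 8.39 to 74.2 CPM, HSPA8 from 620.8 to 321 CPM, and 13 of the 14 endoplasmic reticulum genes lie to the right at day 15.

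ASNS, which makes asparagine from aspartate and glutamine, differed most. Its level was 8.39 CPM (7.48 to 9.38) in ENCCs of day 10. At day 15 it was 74.2 CPM (71.9 to 76.4), a log2 difference of 3.00 or 8.84-fold. The intervals lie far apart, and after thinning each cell to 3000 UMIs the share of ENCCs with an ASNS UMI was 2.22% (109 of 4919 cells, 1.82 to 2.67) before and 18.2% (896 of 4934, 17.1 to 19.3) after the move to crestospheres. Of the 34 members with a mean share of at least 1% over both days, ASNS, TRIB3, HSPB1 and BAG3 were the 4 whose share was at least 2 times higher at day 15, and 0 had a share as much lower, beside 7.95% of the 9712 genes tested higher and 6.55% lower. TRIB3, with shares of 0.488% at day 10 and 3.24% at day 15, met the 1% mean through day 15. It therefore had to differ if it was to be counted. Under the alternatives tried, the ASNS ratio ranged from 2.56 with a pseudocount of 5 CPM to 3.17 with TMM scaling. TRIB3, a pseudokinase that feeds back on ATF4, was at 1.54 CPM (57 UMIs) and 12.2 CPM (682 UMIs), 7.92-fold higher at day 15, but its mean was under 20 CPM and it was not counted. PSAT1 and PHGDH, enzymes of serine synthesis, went from 66.0 to 122 CPM and from 138 to 242 CPM, ratios of 0.88 and 0.81. Both lay just inside 1 log2 unit, and PSAT1 passed it with TMM scaling at 1.06.

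The transcription factors of the group moved less. ATF4 mRNA differed little, with 162 CPM (158 to 166) in day 10 ENCCs against 168 CPM (165 to 172) in day 15 ENCCs. DDIT3 (CHOP) was at 8.36 and 15.2 CPM, ATF3 at 5.74 and 8.51 CPM, and SESN2, a stress-induced regulator of mTORC1, at 10.4 and 13.9 CPM. CHAC1, which degrades glutathione, was the lowest of the group, with 42 UMIs at day 10 and 89 at day 15 over the whole class. DDIT3, ATF3, SESN2 and CHAC1 all stayed under a mean of 20 CPM.

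A wider list of 40 other ATF4 targets and integrated stress response genes gave a similar picture in ENCCs. Of its 22 genes above 20 CPM, 17 lay above the median of all genes, and the median of the 22 was 0.45. Of the 22, 5 were at least 1 log2 unit higher at day 15 and 0 as much lower, beside 6.7% and 3.82% of all genes. They were SLC3A2, the heavy chain of large amino acid transporters (39.7 to 109 CPM), SARS, seryl-tRNA synthetase (67.0 to 174 CPM), SLC1A5, a glutamine transporter (37.7 to 87.8 CPM), YARS, tyrosyl-tRNA synthetase (35.1 to 74.7 CPM), and NARS, asparaginyl-tRNA synthetase (58.2 to 117 CPM). NARS falls outside the naming rule and was named after its values were seen. PPP1R15A of the same list, which restores translation after stress, was at 12.9 and 15.7 CPM and was likewise named after its values were seen. Of 15 immediate early genes, which respond to cell handling, 2 passed and 0 of these were past the threshold in ENCCs between days. The low genes of that list went both ways, with JUN at 4.44 and 16.7 CPM, DUSP1 at 1.81 and 10.6 CPM, FOS at 4.41 and 9.58 CPM and MYC at 1.92 and 5.68 CPM, but EGR1 at 11.8 and 4.39 CPM and IER3 at 4.71 and 0.483 CPM, all named after their values were seen. Their part in the differences between days was not tested.

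Among the endoplasmic reticulum genes, 13 of 14 had a higher level at day 15, and none crossed 1 log2 unit. XBP1, the transcription factor spliced by IRE1, came closest, with 28.6 CPM (26.9 to 30.4) before and 57.9 CPM (55.96 to 59.97) after, a ratio of 0.99 that became 1.17 with TMM scaling. HSPA5 (BiP), the main chaperone of the compartment, had 79.6 CPM (76.7 to 82.5) in the earlier and 138 CPM (135 to 141) in the later ENCCs. HSP90B1 (GRP94), its HSP90, was at 177 and 285 CPM. The 3 disulfide isomerases went the same way, with PDIA4 at 41.4 and 71.5 CPM, PDIA6 at 273 and 397 CPM and PDIA3 at 149 and 186 CPM.

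The lectin chaperones CANX (136 to 204 CPM) and CALR (174 to 223 CPM) had ratios of 0.58 and 0.35. HERPUD1, which works in endoplasmic reticulum associated degradation, was at 19.4 and 30.6 CPM, and CRELD2 at 12.4 and 25.2 CPM. Ratios between 0.32 and 0.39 were found for PDIA3, SDF2L1, DNAJB11, MANF and CALR, where DNAJB11 and SDF2L1 assist HSPA5 and MANF is a secreted neurotrophic protein of the compartment. DNAJB9, another HSPA5 partner and a common readout of IRE1 signalling, was the exception, at 8.66 CPM (320 UMIs) and 7.88 CPM (440 UMIs). The list of 31 other unfolded protein response genes had 16 above 20 CPM, with a median of 0.33. Of these, 1 was past 1 log2 unit, beside 6.7% of all genes higher and 3.82% lower. It was ERO1A, the oxidase that recharges disulfide isomerases (8.93 to 43.4 CPM), which passed through its day 15 level.

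In the heat shock group the constitutive cytosolic chaperones were lower at day 15 and the small heat shock protein was higher. HSPA8, the constitutive HSP70, went from 620.8 CPM (613 to 629) to 321 CPM (317 to 326), a ratio of -0.95 just inside the threshold. It passed -1 among G1 cells (-1.42) and after thinning (-1.004), and was -0.76 with TMM scaling. HSP90AB1, the constitutive HSP90, was at 2364 and 1542 CPM, a ratio of -0.62. HSPB1 (HSP27), a small heat shock protein that holds unfolded proteins, went from 48.0 CPM (45.8 to 50.3) to 124 CPM (122 to 127), a ratio of 1.36 and the second member past the threshold. The share of ENCCs with an HSPB1 UMI at 3000 UMIs was 13.5% at day 10 and 31.5% at day 15.

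The stress-inducible HSP70 genes were low at both days. HSPA1A was at 7.90 CPM (292 UMIs) and 9.13 CPM (510 UMIs), and HSPA1B at 3.63 and 3.64 CPM. These genes are near-identical copies, so reads may be split between them, and their sum was 11.53 CPM (10.46 to 12.68) in the earlier and 12.8 CPM (11.9 to 13.7) in the later ENCCs, intervals that overlap. No more than 2 of the 4921 day 10 ENCCs held 5 or more UMIs of the pair, and 1 of the 4934 at day 15. HSP90AA1, the inducible HSP90, was at 883 and 840 CPM, DNAJB1, the inducible HSP40, at 31.7 and 31.5 CPM, and HSPH1, an HSP70 exchange factor, at 44.2 and 35.04 CPM. BAG3, a co-chaperone that HSF1 induces, was at 6.22 and 12.0 CPM and under the limit for counting.

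The mitochondrial chaperonin pair split, with HSPE1 (HSP10) at 387 and 490 CPM and HSPD1 (HSP60) at 740 and 689 CPM. Their annotated spans in GRCh38 overlap on opposite strands, HSPD1 at chr2:197486581-197516737 (minus) and HSPE1 at chr2:197499994-197503457 (plus), and processed pseudogenes exist for these and for HSPA8 and the HSP90 genes, so some of their counts are uncertain. The HSPE1-MOB4 readthrough gene held 0 UMIs in ENCCs of both days. DNAJA1, an HSP40, was at 115 and 125 CPM. Of 30 other heat shock and co-chaperone genes, 20 passed 20 CPM, with a median of -0.10. Of these, 1 was past 1 log2 unit, the HSP90 co-chaperone FKBP4 (77.6 to 179 CPM), beside 6.7% of all genes higher and 3.82% lower. Of the 8 subunits of the cytosolic chaperonin TRiC, all passed, with a median of -0.19, and 0 were past 1 log2 unit beside the same shares.

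Over whole libraries, in which the mix of classes also differs, 3 of the 27 members that passed were past 1 log2 unit and 0 lower, beside 7.2% of genes higher and 5.32% lower. They were ASNS (8.58 to 82.4 CPM), HSPB1 (52.5 to 116 CPM) and DDIT3 (9.93 to 32.5 CPM). DDIT3 reached 20 CPM through the day 15 library and was at 9.36 and 20.9 CPM in kept cells alone.

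DDIT3 and ATF3 also stood high in cells that the quality limits had removed. At day 15 the 984 removed cells held DDIT3 at 60.7 CPM (57.7 to 63.9) and ATF3 at 31.7 CPM (29.5 to 34.0), against 20.9 and 12.6 CPM in the 5336 kept cells, the only 2 of 29 members past 1 log2 unit beside 3.25% of genes. Of these removed cells 94.4% were over the limit of 3500 genes, and their median depth was 21367 UMIs. Placode markers were also higher in them, with EYA2 at 16.6 against 1.57 CPM in kept cells, NEUROG1 at 10.7 against 0.994 CPM and EYA1 at 5.89 against 1.61 CPM, while DLX5 was at 0.487 and 0.365 CPM. The 5 NNE markers summed to 82.3 against 32.2 CPM and the 5 ENCC markers to 586 against 1004 CPM, and the part of this cell mix in the DDIT3 and ATF3 levels was not tested. ATF3 reached 20 CPM through the removed cells and was inside the threshold (0.99) as a mean over cells. At day 10, where the removed cells were mostly shallow (median 3679 UMIs), 0 of 24 members were past 1 log2 unit, beside 0.473% of genes.

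The classes of each day differed from ENCCs mainly in the endoplasmic reticulum and ATF4 groups. At day 15 these 2 groups stood highest in different classes, while at day 10 both stood highest in NNE. The 9 ATF4 group genes summed to 401 CPM in day 10 ENCCs and 659 CPM in day 15 ENCCs, with the highest sum in day 15 CP1 (1147 CPM) and the lowest in the day 15 NEP cluster (332 CPM). The 14 endoplasmic reticulum genes summed to 1243 and 1815 CPM in ENCCs, with the highest sums in the day 15 NEP cluster (2925 CPM) and day 10 NNE (2398 CPM) and the lowest in CP2 (995 CPM). The ATF4 group sum of NNE was 442.5 CPM. The mesenchymal cells stood above ENCCs of day 15 in both groups, at 1926 CPM for the endoplasmic reticulum genes and 851 CPM for the ATF4 group. Sums of the heat shock group ran from 4139 CPM in CP2 to 5370 CPM in day 10 NNE and were led by HSP90AB1, except in CP2, where HSP90AA1 led.

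**Figure D2:**
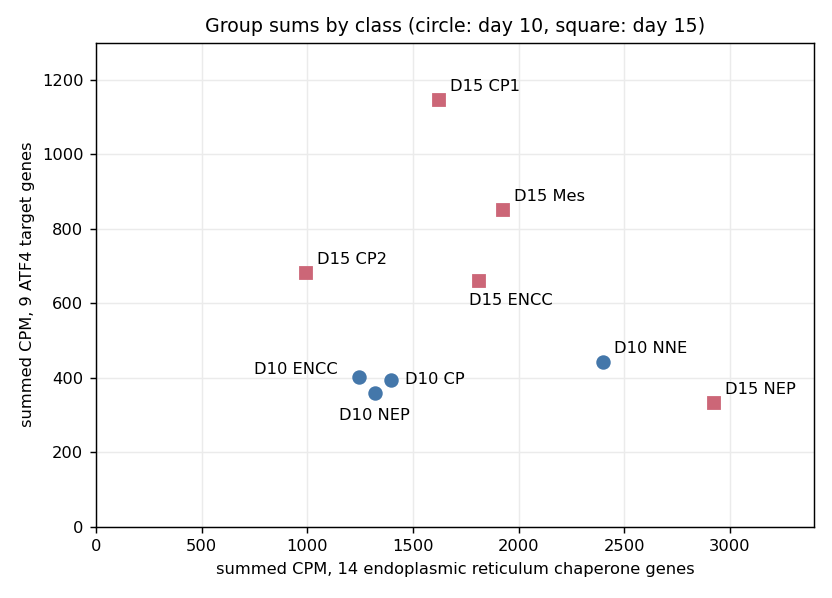
Summed CPM of the 14 endoplasmic reticulum chaperone genes (x axis) against that of the 9 ATF4 group genes (y axis) in the 9 annotated classes, circles for day 10 and squares for day 15. Day 15 CP1 is highest on the y axis (1147 CPM) and the day 15 NEP cluster on the x axis (2925 CPM), where its ATF4 sum is the lowest of all (332 CPM).

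The members differed in how far they ranged over the classes of a day. HSPB1 ran from 27.4 CPM in CP2 to 362 CPM in the NEP cluster at day 15, and from 39.9 CPM in CP to 62.7 CPM in NEP at day 10. CALR ran from 67.2 to 451 CPM and HSP90B1 from 104 to 565 CPM between CP2 and the NEP cluster. CANX, in contrast, stayed between 153 CPM in the mesenchymal cells and 252 CPM in the NEP cluster, and DNAJA1 between 125 and 147 CPM, a narrower range than its 107 to 166 CPM at day 10. PSAT1 and PHGDH were highest in the mesenchymal cells, at 171 and 294 CPM. HSPA8 and HSP90AA1 were lowest in ENCCs among the day 15 classes, at 321 and 840 CPM, where at day 10 HSPA8 was at 620.8 CPM in ENCCs and 620.2 CPM in CP, the upper end of the 4 classes.

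Non-neural ectoderm at day 10, the surface epithelium lineage, carried more of the endoplasmic reticulum chaperones than ENCCs of the same library. Of 24 members that passed, 5 were at least 1 log2 unit higher and 0 lower, beside 9.98% of genes higher and 3.16% lower. All 5 belong to the endoplasmic reticulum group. HERPUD1 was at 76.9 CPM (64.8 to 90.7) against 19.4 CPM in ENCCs, CALR at 443 against 174 CPM, HSP90B1 at 397 against 177 CPM, HSPA5 at 171 against 79.6 CPM and PDIA4 at 89.4 against 41.4 CPM. HERPUD1 passed the limit of 20 CPM through its level in NNE. All 12 endoplasmic reticulum genes that passed lay above the all-gene median of 0.13, and their own median was 0.81. TMM scaling lowered every ratio of this class by 0.26, which left HERPUD1 (1.69) and CALR (1.08) past the threshold and took PSAT1 past it as lower. Without TMM scaling none of the ATF4 group was past the threshold in NNE. ATF4 was at 198 against 162 CPM in ENCCs, PHGDH at 153 against 138 CPM and ASNS at 14.1 CPM (26 UMIs) against 8.39 CPM. PSAT1 was at 37.4 CPM, below its 66.0 CPM in ENCCs.

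In the other day 10 classes 1 member was past the threshold. Day 10 CP held 1127 CPM of the 5 ENCC markers, and day 10 NEP 1298 CPM of the 5 NNE markers beside 1415 CPM of its own, and the part of this overlap in their ratios was not tested. In CP, MANF was at 145 CPM (131 to 161) against 70.8 CPM, the only member past 1 log2 unit (ratio 1.03, or 0.93 with TMM scaling), beside 3.62% of genes higher and 1.4% lower, and SDF2L1 was at 68.2 against 37.9 CPM. In NEP, 0 of 24 members were past the threshold in either direction, beside 8.76% higher and 2.39% lower. Of the low genes, ATF3 was at 21.0 CPM in NEP and 5.74 CPM in ENCCs, and DNAJB9 at 25.2 and 8.66 CPM, both under the mean needed for counting. Over the 3 day 10 comparisons the split was 6 higher and 0 lower, 2 higher and 1 lower with TMM scaling, and 7 higher and 1 lower with totals that leave out mitochondrial and ribosomal protein genes.

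**Figure D3:**
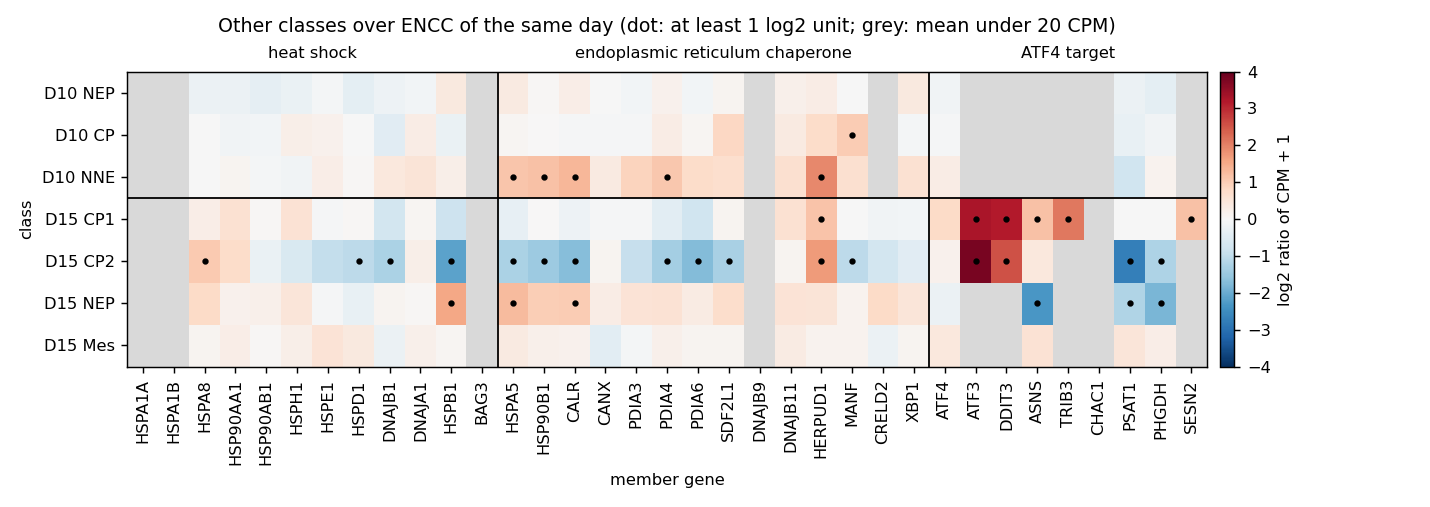
Log2 ratio of CPM + 1 of each other class over ENCCs of the same day for the 35 genes, day 10 classes above the line and day 15 classes below it. Dots mark ratios of at least 1 in either direction and grey cells a mean under 20 CPM, with 5 dots in the endoplasmic reticulum group of day 10 NNE and 5 in the ATF4 group of day 15 CP1.

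In the crestospheres, CP1 carried the stress transcription factors of the ATF4 group. Of its 30 members that passed, 6 were at least 1 log2 unit higher than in ENCCs and 0 lower, beside 13.2% of genes higher and 4.5% lower. DDIT3 was at 146 CPM (132 to 163) in CP1 and 15.2 CPM (14.2 to 16.3) in ENCCs, and ATF3 at 89.6 CPM (78.0 to 102) and 8.51 CPM (7.76 to 9.31), ratios of 3.18 and 3.25. TRIB3 was at 56.5 against 12.2 CPM, ASNS at 168 against 74.2 CPM, SESN2 at 32.7 against 13.9 CPM and HERPUD1 at 68.7 against 30.6 CPM. DDIT3, ATF3, TRIB3 and SESN2 passed the limit of 20 CPM through their level in CP1, so that they had to differ if they were to be counted.

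Many CP1 cells held these transcripts. At 3000 UMIs per cell, 32.2% of the 208 CP1 cells (25.9 to 39.0, exact Clopper-Pearson) held a DDIT3 UMI against 4.74% of ENCCs (4.17 to 5.37), and at full depth the shares were 60.1% and 13.96%. For ATF3 the thinned shares were 23.6% and 2.27%, and for TRIB3 16.8% and 3.24%. No class here is known to lack these genes, so ENCCs of the same library stand in for the background of free RNA. The cell with the most DDIT3 held 12 of the 350 DDIT3 UMIs in CP1. TMM scaling lowered the ratios of CP1 by 0.34, which left DDIT3 (2.85), ATF3 (2.93) and TRIB3 (1.79) past the threshold and ASNS (0.83), SESN2 (0.85) and HERPUD1 (0.80) inside it.

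No other member was counted past 1 log2 unit in CP1. ATF4 mRNA was at 287 CPM (266 to 309) against 168 CPM, PSAT1 at 122 in both classes and PHGDH at 238 against 242 CPM. HSPA5 was at 110 against 138 CPM, PDIA6 at 229 against 397 CPM and HSPB1 at 70.3 against 124 CPM, all lower than in ENCCs but inside 1 log2 unit. The median ratio of the 13 endoplasmic reticulum genes was -0.06, below the all-gene median of 0.19, and 2 of them lay above it. HSPA1A and HSPA1B together were at 9.63 CPM (6.10 to 14.4).

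Some other stress and dissociation genes moved with DDIT3 and ATF3 in CP1, and others did not. FOS was at 7.54 CPM in CP1 and 9.58 CPM in ENCCs, and EGR1 at 4.605 and 4.39 CPM, both under the limit for counting. Of 15 immediate early genes, 6 passed 20 CPM and 5 were past 1 log2 unit (BTG2, DUSP1, JUN, JUND and KLF6), beside 13.2% of all genes higher. JUN was at 150 CPM against 16.7 CPM in ENCCs. BTG2, DUSP1, JUN and JUND passed the limit through their level in CP1, so that they had to differ if they were to be counted. PPP1R15A was at 130 against 15.7 CPM and MTHFD2, a mitochondrial folate enzyme under ATF4, at 321 against 70.9 CPM. These genes were named after their values were seen. Of the 40 other ATF4 and integrated stress response genes, 27 passed, with a median of 0.56. Of these, 6 were past 1 log2 unit, beside 13.2% of all genes higher and 4.5% lower. PPP1R15A, SLC7A5 (65.3 against 14.7 CPM) and SLC7A1 (36.4 against 10.2 CPM) were among them. These reached 20 CPM through CP1, so that they had to differ if they were to be counted. SLC7A5 and SLC7A1 were likewise named after their values were seen. The part of cell handling in the DDIT3 and ATF3 levels of CP1 was not tested.

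**Figure D4:**
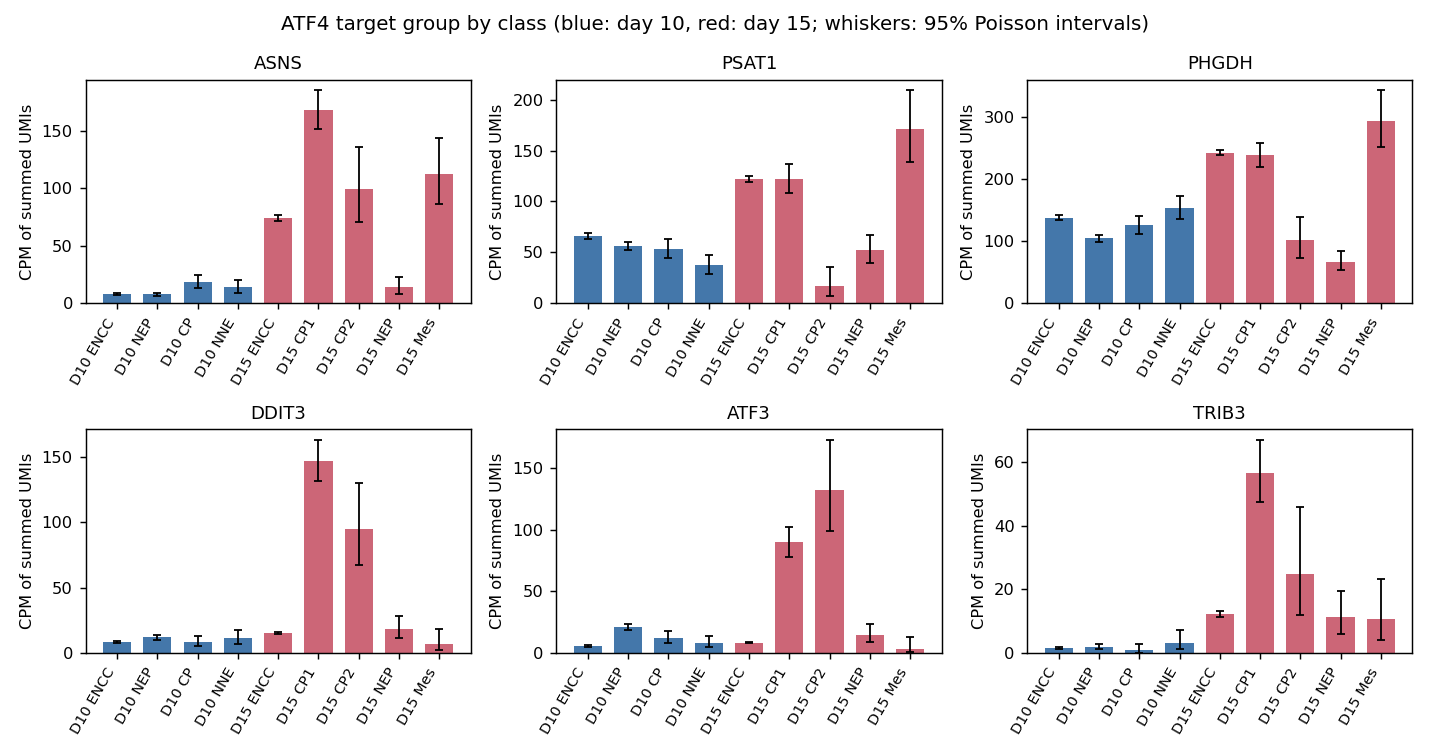
CPM of summed UMIs of 6 ATF4 group genes in the 9 annotated classes, blue for day 10 and red for day 15, with 95% Poisson intervals as whiskers and axes from 0. DDIT3, ATF3 and TRIB3 are high in CP1 (146, 89.6 and 56.5 CPM), while ASNS is at 74.2 CPM or more in 4 of the 5 day 15 classes and at 13.9 CPM in the day 15 NEP cluster.

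CP2, with 43 cells and 401995 UMIs, shared high DDIT3 and ATF3 with CP1 and had low levels of most endoplasmic reticulum genes. Of its 28 members that passed, 4 were past 1 log2 unit higher and 12 lower, beside 31.4% of genes higher and 9.83% lower. ATF3 was at 132 CPM (53 UMIs), DDIT3 at 94.5 CPM (38 UMIs), HERPUD1 at 102 CPM (41 UMIs) and HSPA8 at 659 CPM (265 UMIs), where ATF3 and DDIT3 reached 20 CPM through CP2. The lower members were PSAT1 (17.4 CPM, 7 UMIs), HSPB1, PDIA6, CALR, HSP90B1, PDIA4, SDF2L1, DNAJB1, HSPA5, PHGDH, HSPD1 and MANF. CALR was at 67.2 CPM (44.3 to 97.7) against 223 CPM in ENCCs, and PDIA6 at 119 against 397 CPM. TMM scaling moved every ratio of this class down by 0.76, and the all-gene median was 0.49, so that HSPA8 (0.28) and HERPUD1 (0.96) were inside the threshold under TMM scaling. As in CP1, 5 of the 6 immediate early genes that passed were past 1 log2 unit higher, with JUN at 236 CPM, and PPP1R15A was at 224 CPM, against 16.7 and 15.7 CPM in ENCCs. FOS (13 UMIs in CP2), JUN, JUND, DUSP1 and PPP1R15A reached 20 CPM through CP2, so that they had to differ if they were to be counted. The part of these genes in the DDIT3 and ATF3 levels of CP2 was not tested.

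The day 15 NEP cluster had high levels of some endoplasmic reticulum chaperones and low levels of the amino acid synthesis genes. Of its 13 endoplasmic reticulum genes that passed, 12 lay above the all-gene median of 0.27, with a median of 0.56 that became 0.03 with TMM scaling. Of 26 members that passed, 3 were past 1 log2 unit higher and 3 lower than in ENCCs, beside 15.2% of genes higher and 4.65% lower. HSPA5 was at 330 CPM (298 to 365) against 138 CPM, HSPB1 at 362 CPM (328 to 398) against 124 CPM and CALR at 451 against 223 CPM, with HSP90B1 just inside at 565 against 285 CPM. A single cell held 49 of the 379 HSPA5 UMIs, and the ratio of HSPA5 was 1.25, or 1.10 without the 1% of cells with the highest share of these 35 genes. ASNS was at 13.9 CPM (16 UMIs) against 74.2 CPM, near its level in day 10 classes, PHGDH at 67.1 against 242 CPM and PSAT1 at 52.3 against 122 CPM. With TMM scaling, which lowered the ratios of this cluster by 0.53, HSPA5 (0.73) and CALR (0.49) fell inside the threshold, while HSPB1 (1.01), ASNS (-2.84), PHGDH (-2.36) and PSAT1 (-1.73) stayed past it. With totals that leave out mitochondrial and ribosomal protein genes, HSPA5 (0.96) and CALR (0.72) were inside it too, and CALR was at 0.98 without the 1% of cells named above. Of 40 other ATF4 and stress response genes, 21 passed, 2 were past 1 log2 unit higher and 5 lower, beside 15.2% of all genes higher and 4.65% lower. PPP1R15A, among the higher ones, reached 20 CPM through the NEP cluster, so that it had to differ if it was to be counted. KRT8 and KRT18 were at 341 and 374 CPM in these cells against 5.00 and 2.17 CPM in ENCCs, and the part of that epithelial signal in the chaperone levels was not tested.

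In the 47 mesenchymal cells 0 of 26 members were past 1 log2 unit, beside 4.59% of genes higher and 2.07% lower. ASNS was at 112 CPM (63 UMIs), HSPE1 at 712 CPM and HSPD1 at 913 CPM, each above ENCCs of the same day. Over the 4 day 15 comparisons 13 values were past 1 log2 unit higher and 15 lower, with TMM scaling 6 were higher and 24 lower, and with totals that leave out mitochondrial and ribosomal protein genes 9 were higher and 23 lower, so the balance of directions at day 15 rests on the scaling.

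ENCC subclusters, numbered separately at each day, differed little at day 10. None of the members was past 1 log2 unit in ENCC 1, ENCC 2, ENCC 3 or ENCC 4 against the other subclustered ENCCs, beside 0.798%, 1.12%, 1.54% and 1.39% of genes in either direction. ENCC 3 (348 cells) held the highest levels of some cytosolic chaperones and the lowest of others, with HSP90AA1 at 1346 CPM against 816 to 872 CPM in the others, HSPA8 at 793 against 596 to 654 CPM and DNAJA1 at 170 against 104 to 132 CPM. HSP90AB1 was at 2175 CPM there against 2346 to 2537 CPM in the others, and DNAJB1 at 17.8 CPM (40 UMIs) against 32.5 to 33.3 CPM.

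At day 15 the subclusters separated on ASNS. ENCC 1′ had 108 CPM (104 to 113), ENCC 2′ 62.9 CPM (59.97 to 66.0), ENCC 4′ 43.5 CPM (33.7 to 55.4) and ENCC 3′ 35.4 CPM (31.4 to 39.7), where the intervals of the last pair overlap, and all stood above the 7.65 to 13.0 CPM of the day 10 subclusters. Against the other day 15 subclusters ASNS was past 1 log2 unit lower in ENCC 3′ (ratio -1.16), as the only member of 26, beside 0.781% of genes, and PSAT1 was close behind at 66.3 CPM against 134 and 133 CPM in ENCC 1′ and ENCC 2′. Of the 40 other ATF4 and stress response genes, 20 passed in ENCC 3′ and 19 of them were below 0, with a median of -0.33. This count is set against 0 and not against the median of all genes in ENCC 3′, so it can move with the scaling. ASNS in ENCC 1′ was just inside the threshold at 0.94, and 0 members were called in ENCC 1′ or ENCC 2′, beside 1.07% and 0.895% of genes. TRIB3 was also highest in ENCC 1′, at 18.0 CPM (16.1 to 20.0), and between 1.32 and 9.52 CPM in the others.

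ENCC 4′, the smallest subcluster with 138 cells, had the lowest HSPA8, DNAJA1 and HSPH1 of the subclusters and the most DDIT3. HSPA8 was at 150 CPM (131 to 171), DNAJA1 at 44.2 CPM and HSPH1 at 13.2 CPM, against 326, 127 and 35.6 CPM in the other day 15 subclusters together, and HSPA8 was inside the threshold with TMM scaling (-0.93). DDIT3 was at 53.4 CPM (81 UMIs) against 13.9 CPM, passing the limit through ENCC 4′, while TRIB3 had 2 UMIs (1.32 CPM) and ASNS was at 43.5 CPM. These were 1 higher and 3 lower of 27 members, beside 12.6% of genes in either direction, so this subcluster stood apart in many genes. HSPA5 and HSP90B1 were at 187 and 362 CPM there, the highest levels of any subcluster. Of 15 immediate early genes 5 passed and 4 were past 1 log2 unit higher in ENCC 4′, beside the same 12.6% in either direction. Only IER2 (76.4 CPM) and KLF6 (23.8 CPM) of the 15 were above 20 CPM over all day 15 ENCCs. The others that passed reached the limit through ENCC 4′, so that they had to differ if they were to be counted.

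**Figure D5:**
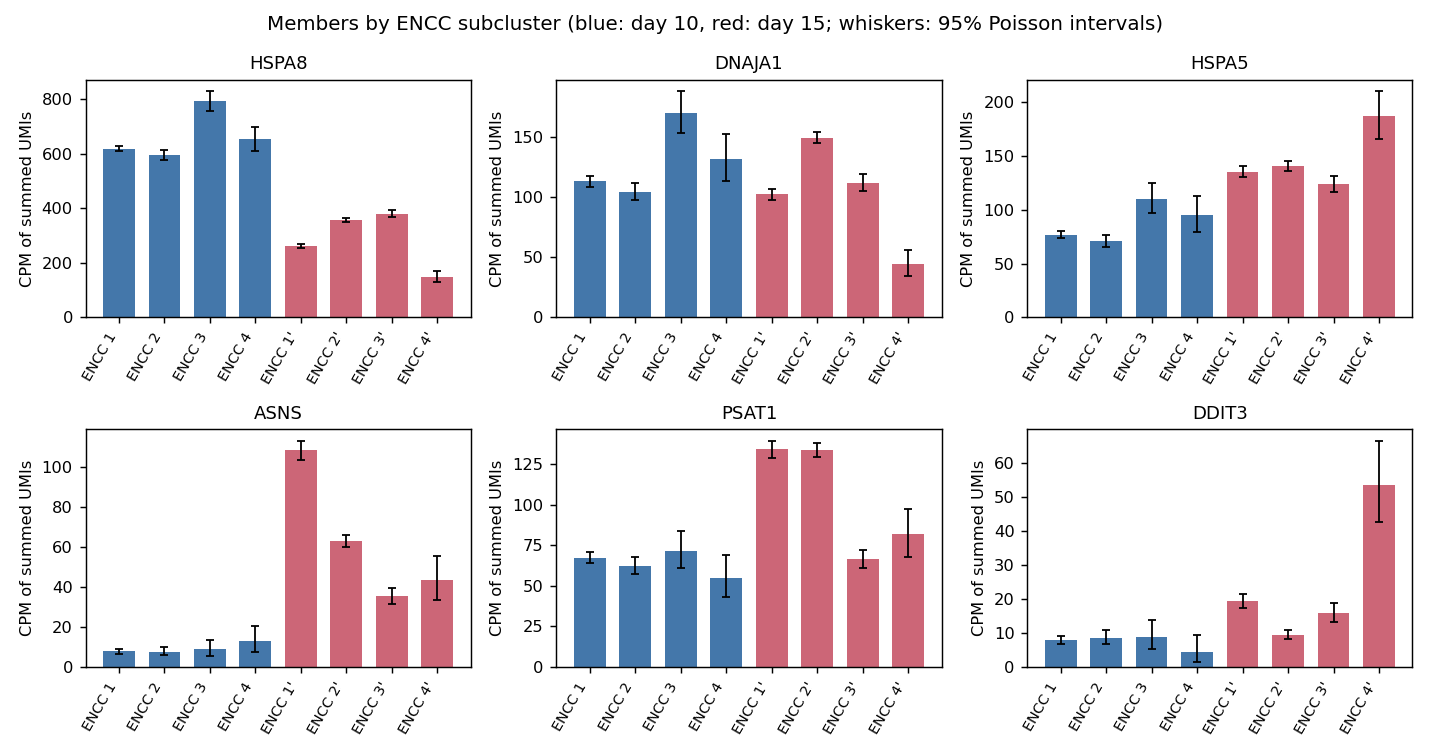
CPM of summed UMIs of 6 members in the 4 day 10 (blue) and 4 day 15 (red) ENCC subclusters, with 95% Poisson intervals as whiskers and axes from 0. HSPA8 and DNAJA1 are lowest in ENCC 4′ (150 and 44.2 CPM), where DDIT3 is highest (53.4 CPM), and ASNS is at 108 CPM in ENCC 1′ and 35.4 CPM in ENCC 3′.

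Phases of the cell cycle differed little in these genes. Within ENCCs, 0 members were past 1 log2 unit between S or G2M and G1 cells at either day, beside 3.15% and 4.95% of genes at day 10 and 3.5% and 3.49% at day 15. Of the members with a mean of at least 20 CPM, DNAJB1 at day 10 differed most, at 40.2 CPM in G2M and 22.2 CPM in G1 cells. Below that limit, HSPA1A at day 10 was at 12.8 CPM (157 UMIs) in G2M and 5.48 CPM (70 UMIs) in G1 cells, and CHAC1 at day 15 at 2.60 CPM (62 UMIs) in S and 0.513 CPM (9 UMIs) in G1 cells. HSPA8 was at 705 CPM in day 10 and 263 CPM in day 15 G1 cells and ASNS at 8.93 and 71.4 CPM, so the difference of both genes between days was present within a phase. DDIT3 in day 15 ENCCs was at 22.3 CPM in G1 and 12.6 and 11.6 CPM in G2M and S cells.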

How the data were processed

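2 single-cell RNA libraries were analysed, 1 per day, each pooling 2 biological repeats. The deposited count matrices hold raw UMI counts per gene and cell, made by the authors with kallisto and bustools according to the methods, while the submitters' processing notes name Cell Ranger, Seurat 4.0.4 and GRCh38. The deposited metadata give classes, subclusters, phases and the percent of mitochondrial UMIs per cell, computed by the authors in Seurat. Doublets were not called again here, and the classes were used as deposited.

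UMI counts were summed per class (70488169 UMIs at day 10, 84976253 at day 15) and scaled to CPM. Ratios used a pseudocount of 1 CPM, a mean of at least 20 CPM and a threshold of 1 log2 unit. Intervals are exact Poisson for sums and Clopper-Pearson for shares (95%), and cover counting error only. Shares used cells thinned to 3000 UMIs. With 1 library per day no test was run. TMM factors came from edgeR 4.0.16 in R 4.3.3, and other values from Python 3.11.15 with numpy 2.4.6, scipy 1.17.1 and pandas 2.3.3. The code was tested on simulated data. Motifs were searched on both strands of RefSeq promoters of 300 bases. All 35 genes are named, and genes of other pathway lists where they passed the threshold between days in ENCCs, at most 4 per list and direction. The members and lists were chosen with earlier results of these data known. Alternatives covered scaling, pseudocount, filter, thinning, cells left out and means over cells. Some marker values are not reported here.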

Additional observations from a re-analysis of the deposited data

How the results depend on the processing

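Of 60 counts of members past the threshold under alternative settings, 51 stayed within 1.5 times the reported count and 9 moved further. Each count adds both directions, so it does not show a shift between them. For the day 15 classes the count went from 28 to 30 with TMM scaling, while the split went from 13 higher and 15 lower to 6 and 24. TMM scaling moved the count between days in ENCCs from 2 to 4 (XBP1 and PSAT1 added), over whole libraries from 3 to 6, and over the day 10 classes from 6 to 3. With a mean of at least 5 CPM and with no filter on low values, the day 10 classes had 12 and 13 and the subclusters 10 and 12 in place of 5. Means over cells left 1 of 2 in removed cells. Requiring at least 2 UMIs per cell gave 10 members with a share that differed by at least 2 times, in place of 4. Of 421 alternative values of the 46 ratios past the threshold, 387 stayed past it and 0 changed sign. Leaving out the barcodes that both libraries share was chosen after seeing the data and kept each count within 1.5 times. No paired analysis was possible because each day has 1 library, and for the same reason no replicate could be left out. The CP2 class (43 cells), the mesenchymal class (47 cells) and the day 15 NEP cluster (104 cells) have few UMIs, and 3 UMIs there correspond to 7.46, 5.35 and 2.62 CPM. Causes were not tested.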
